A study of Mus musculus with 10 samples.

Results

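The clade B serpins are the genes named Serpinb followed by a number, and they were taken here as every row of the deposited expression table whose gene name starts that way. The table held 28 such rows among 49671 genes. They were followed across 10 libraries of bulk RNA from SmoM2-YFP-expressing epidermal cells of mouse skin, isolated by FACS in a study of Survivin (encoded by Birc5) in basal cell carcinoma formation. All 5 groups carried Rosa-SmoM2, an active form of the Hedgehog signal transducer Smoothened, and each group had 2 libraries. The groups were Krt14-CREER/Rosa-SmoM2/Survivin LOF at 6 weeks (LOF), Inv-CREER/Rosa-SmoM2/Krt14rtTA/Survivin-GOF at 8 weeks (GOF), Krt14-CREER/Rosa-SmoM2 at 8 weeks, Krt14-CREER/Rosa-SmoM2 at 6 weeks, and Inv-CREER/Rosa-SmoM2 at 8 weeks (Inv). The weeks stand before TAM in the titles, which was taken to mean tamoxifen, the drug that switches on CREER, and the age of the mice is not given. Krt14 is a gene of basal keratinocytes and Inv stands for Involucrin, a gene of differentiating keratinocytes. As a group name, Krt14 means Krt14-CREER/Rosa-SmoM2 without Survivin LOF, although LOF also carries Krt14-CREER. The labels do not give the layer of the sorted cells under either driver. All libraries held Krt14 RNA, with 70080 and 75213 in the Krt14 group at 8 weeks and 58626 and 54039 in Inv. Krt14rtTA is given for GOF and not for Inv, so its part cannot be told apart from that of Survivin gain, and the descriptions call the Inv libraries pools without saying of what.

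Serpins trap a protease by offering it a reactive centre loop as bait: the protease cleaves the loop, the serpin folds over, and both partners are left inactive. Clade B serpins differ from the plasma serpins in lacking a classical signal peptide, and most of them act inside cells, where they protect against lysosomal, granule and trypsin-like proteases. The epidermis makes many of them, and changes in the human SERPINB7 and SERPINB8 genes cause inherited skin peeling or thickening. Serpinb5 (maspin) has the serpin fold without the inhibitory mechanism.

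The values are normalized counts, in which 1 read was worth 2.25 to 2.60 units and 3 reads 6.76 to 7.80 units, a floor that covers counting error only. The depth behind the libraries lay between 7693153 and 8870758 reads. Summed keratinocyte markers (6 of 6 detected) lay between 298007 and 462211 in all libraries. Birc5 stood at 382 and 429 in LOF, 7277 and 16384 in GOF, 1005 and 926 in Krt14 at 8 weeks, 961 and 1103 in Krt14 at 6 weeks, and 237 and 265 in Inv. Xist, the transcript of the inactive X chromosome, stood at 30024 and 59594 in LOF and at 7589 and 56185 in GOF, against 51 to 194 in the other 6 libraries. The Y-linked Ddx3y stood at 1336 and 956 in LOF and 3328 and 970 in GOF, so those 4 libraries held both transcripts, and the genotype cannot be told apart from this difference. The GOF libraries also differed from each other: 16 of the 20 tested serpins were lower in replicate 2, and 9 of them by over 2-fold (45.0%, against 11% of all tested genes). Endothelial markers summed to 293 and 1095 in those GOF libraries, and the part of other cells in that difference was not tested. In bulk RNA, fewer cells of a type and less RNA per cell cannot be told apart.

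The 28 genes lie in 2 clusters (GRCm38, GENCODE release M21). Chromosome 1 holds 12 of them between 106861173 and 107610484, from Serpinb5 through the Serpinb3 genes to Serpinb8. Chromosome 13 holds 16 between 32842092 and 34002794, with the Serpinb1, Serpinb6 and Serpinb9 genes. All 12 genes of the chromosome 1 cluster passed the filter for testing (at least 2 libraries with a value of 10 or more), and 8 of 16 on chromosome 13 did, so 20 members were tested. Of these, 15 had a mean of at least 50 in at least 1 group and are described library by library. GENCODE lists 2 members as pseudogenes, Serpinb1-ps1 and, as a polymorphic pseudogene, Serpinb10.

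Some members share sequence, which limits how far their counts can be kept apart. Serpinb2 and Serpinb10 lie on the same strand and share 291 exon bases, 12.4% of the exon length of Serpinb2 and 8.34% of that of Serpinb10. Of all 50-base stretches of their transcripts, Serpinb3a shared 15.0%, Serpinb3b 14.7%, Serpinb3d 13.4% and Serpinb3c 12.2% with other genes. Serpinb5, Serpinb7, Serpinb11, Serpinb12 and Serpinb13 shared 0 such stretches. Serpinb6a overlaps exons of Nqo2, Ripk1 and 1110046J04Rik on the opposite strand, and the strand setting of the counting is not given in the sources used here. Serpinb2 shared 10.4% of its 50-base stretches, all of them with Serpinb10, which shared 6.97%, and Serpinb6c shared 9.92%. Values of the Serpinb3 genes, Serpinb2, Serpinb10, Serpinb6a and Serpinb6c are therefore less certain than those of the 5 genes with no shared stretch.

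Upstream sequence was available for 25 members (RefSeq, GRCm38.p6) as 300-base windows reaching 250 bases before and 50 after each start. The letters TGANTCA, the site of AP-1 factors, were present on either strand in the windows of 7 of 11 chromosome 1 members (Serpinb2, Serpinb5, Serpinb7, Serpinb8, Serpinb10, Serpinb11 and Serpinb12). They were present in 0 of 14 chromosome 13 members. Some members have more than 1 window, and by window the letters were in 25.8% of 31 member windows. The share was 7.81% of all 32851 windows of the genome table. TATAAA, the letters of the TATA box, was searched on either strand and anywhere in the window, so a match need not be a TATA box. It was present in 7 of 11 chromosome 1 members and 2 of 14 chromosome 13 members. By window it was in 35.5% of 31 member windows, against 13.6% of all windows. GACCACCCA, the site of the Hedgehog effectors of the GLI family, was in 0 of the 25 members and in 0.253% of all windows. Serpinb2 and Serpinb7 are printed because their levels moved in opposite directions, and Serpinb3b and Serpinb3d because they fell with Serpinb2 without its AP-1 letters. Each line gives the 250 bases before the start, with the AP-1 and TATA letters in capitals, and a match is only a description of the sequence. For Serpinb3b and Serpinb7 the RefSeq start lies inside the GENCODE span, not at its end.
Serpinb2 promoter (chr1:107511173-107511422, plus strand): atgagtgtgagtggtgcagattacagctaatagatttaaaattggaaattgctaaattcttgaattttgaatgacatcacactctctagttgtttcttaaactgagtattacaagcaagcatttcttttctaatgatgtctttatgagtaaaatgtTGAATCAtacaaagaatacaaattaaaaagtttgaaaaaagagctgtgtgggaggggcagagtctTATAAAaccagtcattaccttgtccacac
Serpinb7 promoter (chr1:107422439-107422688, plus strand): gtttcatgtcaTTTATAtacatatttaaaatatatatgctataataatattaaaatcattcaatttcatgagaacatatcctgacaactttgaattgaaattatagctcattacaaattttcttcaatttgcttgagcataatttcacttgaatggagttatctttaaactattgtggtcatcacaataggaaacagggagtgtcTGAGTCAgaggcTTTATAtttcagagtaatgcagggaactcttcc
Serpinb3b promoter (chr1:107161115-107161364, minus strand): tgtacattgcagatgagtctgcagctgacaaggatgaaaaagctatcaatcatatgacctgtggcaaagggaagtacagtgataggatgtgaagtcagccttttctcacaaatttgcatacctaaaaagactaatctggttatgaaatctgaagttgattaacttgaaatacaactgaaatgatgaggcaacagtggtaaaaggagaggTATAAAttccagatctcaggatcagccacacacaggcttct
Serpinb3d promoter (chr1:107083481-107083730, minus strand): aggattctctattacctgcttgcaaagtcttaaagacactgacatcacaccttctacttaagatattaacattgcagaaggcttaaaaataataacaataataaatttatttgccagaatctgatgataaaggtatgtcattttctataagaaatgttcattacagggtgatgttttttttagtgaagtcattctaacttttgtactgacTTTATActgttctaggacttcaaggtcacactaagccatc

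In the Serpinb2 line the AP-1 letters begin 94 bases and the TATA letters 29 bases before the start, and in the Serpinb7 line the nearest ones begin 45 and 33 bases before it. The printed genes were picked by their changes and their letters, and how motifs relate to changes was not tested. Within the Serpinb3 group the windows of Serpinb3b and Serpinb3c were identical at 93.0% of their 300 positions, and that of Serpinb3d matched the others at 51.7% to 55.3%.

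Serpinb5 was the most abundant member per kilobase of exon in all 5 groups, with a mean of 2623 normalized counts per kilobase in LOF, 1681 in GOF, 2933 in Krt14 at 8 weeks, 3948 in Krt14 at 6 weeks and 2027 in Inv. Serpinb2 came next in both Krt14 groups, with 1398 per kilobase at 8 weeks and 2669 at 6 weeks, and had 222 in LOF. The next place belonged to Serpinb6a in LOF (368) and GOF (338), where Serpinb3b (330) was close behind, and to Serpinb3b in Inv (411). The summed members stood at 12974 and 12528 normalized counts in LOF, 11250 and 7223 in GOF, 16793 and 17281 in Krt14 at 8 weeks, 24178 and 24123 in Krt14 at 6 weeks, and 10271 and 11086 in Inv. LOF thus held less serpin RNA than Krt14 at either time, with no overlap between those groups. Serpinb2 made up 5.25% and 5.32% of the family per kilobase in LOF, 4.89% and 3.93% in GOF, 21.8% and 23.7% in Krt14 at 8 weeks, 32.6% and 28.5% in Krt14 at 6 weeks, and 2.01% and 2.65% in Inv.

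**Figure D1:**
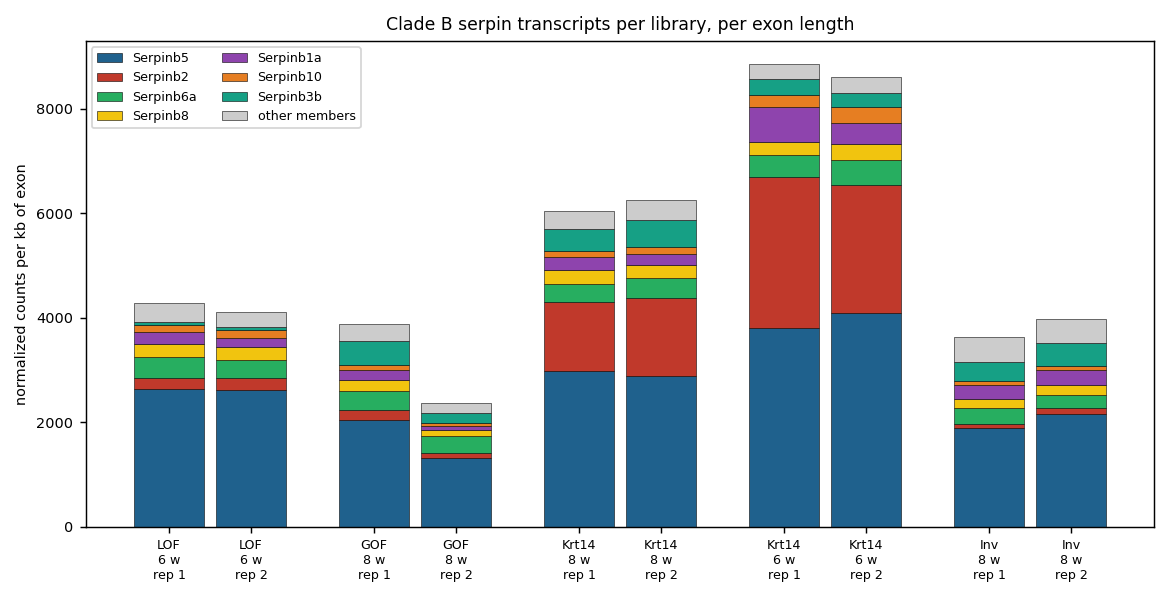
Stacked bars give the normalized counts per kilobase of exon of clade B serpins in each of the 10 libraries, for the 7 members named in the legend and the sum of the others. Serpinb5 takes the largest share of every bar. The Serpinb2 share is 21.8% to 32.6% in the 4 Krt14 bars and 2.01% to 5.32% in the 6 others, LOF included.

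Survivin loss at 6 weeks was compared with Krt14 at 6 weeks, to see what SmoM2 cells express with less Survivin. Of the 20 tested members, 8 fell (Serpinb2, Serpinb3b, Serpinb12, Serpinb3d, Serpinb1a, Serpinb5, Serpinb3a and Serpinb10) and 3 rose (Serpinb7, Serpinb6b and Serpinb9). Calls were made with limma at an adjusted p of 0.05, Benjamini-Hochberg adjustment running over all 21995 tested genes, and 30.9% of all those genes were called (19.5% higher and 11.4% lower). The median log2 change was -0.59 over the tested members and 0.16 over all tested genes. Rescaling the columns by the median of ratios brought the median of all genes to 0.02 and gave 9 members lower and 3 higher. That fit called 31% of all tested genes, and 49.0% of those calls were higher, against 63.1% before rescaling.

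Serpinb2 (chromosome 1, 107511423 to 107535478, plus strand), the plasminogen activator inhibitor that acts on urokinase, stood at 528 and 515 normalized counts in LOF, against 6776 and 5764 in Krt14 at 6 weeks. The log2 change was -3.58 (SE 0.27, adjusted p = 1.03e-05, limma), and the groups were far apart. Serpinb5 (chromosome 1, 106861173 to 106883348, plus strand) stood at 7230 and 7199 in LOF, against 10478 and 11234 in Krt14 at 6 weeks, a smaller fall (log2 change -0.59, SE 0.16, adjusted p = 0.0184, limma). Serpinb10 (bomapin) stood at 484 and 587 in LOF, against 801 and 1028 in Krt14 (log2 change -0.77, SE 0.25, adjusted p = 0.0356, limma). Serpinb10 shares exon bases with Serpinb2, so reads of those bases may have been left out or counted for the other gene.

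The mouse Serpinb3 genes are counterparts of the human squamous cell carcinoma antigens, of which SERPINB3 inhibits cathepsins such as cathepsin L. Serpinb3b, the most highly counted of them, stood at 105 and 77 in LOF, against 502 and 478 in Krt14 at 6 weeks (log2 change -2.43, SE 0.31, adjusted p = 0.000221, limma). Serpinb3d stood at 5 and 0 in LOF, against 27 and 39 in Krt14, and Serpinb3a at 10 and 0 in LOF, against 65 and 52 in Krt14. As recovered reads over both libraries these were 2 against 26 for Serpinb3d, a 13.7-fold lower level (95% counting interval 3.42 to 119), and 4 against 47 for Serpinb3a, 12.4-fold lower (4.52 to 47.2). A counting interval pools the reads of both libraries and leaves out the spread between libraries. The limma 95% intervals of the log2 change were -5.40 to -2.15 for Serpinb3d and -6.98 to -1.33 for Serpinb3a. Their adjusted p-values were 0.00307 and 0.0308 (limma), and both genes were near the floor in LOF. Serpinb3c did not pass, with 5 and 3 in LOF and 5 and 8 in Krt14 at 6 weeks.

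Serpinb12, whose human counterpart inhibits trypsin-like proteases, stood at 28 and 25 in LOF, against 106 and 207 in Krt14 at 6 weeks (log2 change -2.44, SE 0.39, adjusted p = 0.000935, limma). Serpinb1a, an inhibitor of neutrophil elastase and cathepsin G, stood at 508 and 375 in LOF, against 1551 and 928 in Krt14 (log2 change -1.46, SE 0.38, adjusted p = 0.0142, limma). Neither gene's groups overlapped. Serpinb1a and Serpinb2 are also known from leukocytes. The neutrophil markers (2 of 6 above 0 in these 4 libraries, with Csf3r and Ly6g at 0) summed to 3 and 6 in LOF, against 51 and 42 in Krt14 at 6 weeks, all of it Cxcr2 in Krt14. Their part in the serpin values was not tested.

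The members that rose were low in Krt14. Serpinb7 (megsin; chromosome 1, 107399655 to 107452689, plus strand), whose human counterpart is needed for a normal cornified layer of palms and soles, stood at 181 and 199 in LOF, against 10 and 3 in Krt14 at 6 weeks. As reads this was 161 against 5, a 30.6-fold higher level (95% counting interval 12.9 to 95.6). The log2 change was 4.85 (95% interval 3.77 to 5.92, adjusted p = 5.18e-05, limma). Serpinb7 was thus near the floor in both Krt14 libraries and well above it in both LOF libraries. Serpinb9, the inhibitor of granzyme B, stood at 164 and 185 in LOF, against 46 and 29 in Krt14 (log2 change 2.22, SE 0.52, adjusted p = 0.00857, limma). Serpinb6b, a chromosome 13 gene of the Serpinb6 group, stood at 80 and 59 in LOF, against 12 and 8 in Krt14 (log2 change 2.69, SE 0.53, adjusted p = 0.00326, limma). T and NK cell markers, the cells known for granzyme B and for Serpinb9, summed to 11 and 14 in LOF, against 24 and 9 in Krt14 at 6 weeks. Macrophage and dendritic cell markers (1 of 3 tested called higher) summed to 262 and 360 in LOF, against 154 and 193 in Krt14. Fibroblast markers (1 of 5 called higher) summed to 18170 and 18182 in LOF, against 2536 and 1281 in Krt14, nearly all of it Dcn at 17993 and 18053 in LOF, against 2205 and 1163 in Krt14. Col1a1, another of them, stood at 117 and 93 in LOF, against 218 and 75 in Krt14. Melanocyte markers (5 listed) summed to 1917 and 1770 in LOF, against 609 and 587 in Krt14. Sebaceous gland markers (4 of 5 called higher) summed to 21684 and 35943 in LOF, against 9085 and 8232 in Krt14. Dcn and the melanocyte, sebaceous gland, and macrophage and dendritic cell sums moved with the serpins that rose. Their part in the result was not tested.

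Abundant members also stayed below the threshold. Serpinb6a, counterpart of the human cathepsin G inhibitor PI-6, stood at 2109 and 1870 in LOF, against 2255 and 2619 in Krt14 at 6 weeks (log2 change -0.29, SE 0.12, adjusted p = 0.0928, limma). Serpinb8, whose human counterpart inhibits furin, stood at 1217 and 1232 in LOF, against 1233 and 1460 in Krt14 (log2 change -0.13, SE 0.19, adjusted p = 0.641, limma). Serpinb11 stood at 186 and 82 in LOF, against 213 and 212 in Krt14, and Serpinb13, whose human counterpart (headpin) inhibits cathepsins L and K, at 55 and 86 in LOF, against 65 and 13 in Krt14. The replicates of Serpinb11 in LOF and of Serpinb13 in Krt14 at 6 weeks differed by more than 2-fold, and neither change passed (adjusted p = 0.14 and 0.188, limma).

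The calls for Serpinb2, Serpinb3b, Serpinb12, Serpinb3d, Serpinb7 and Serpinb6b held when any 1 of the 4 libraries was left out, and the other 5 of the 11 were each lost in at least 1 such fit. The count of lower members was 4 without LOF replicate 2, 4 without Krt14 6-week replicate 1 and 5 without Krt14 6-week replicate 2, fits that called 17.4%, 23.8% and 17.1% of all genes. With the log2 Xist level as a covariate, a fit chosen after seeing the data whose slope rests on the differences within the LOF pair and within the GOF pair, 0 members were lower and 2 higher, with 4.28% of all tested genes called. In that fit 6 of the 8 lower members had changes above 0 (Serpinb10 0.74, Serpinb12 0.82, Serpinb1a 2.05, Serpinb3a 7.55, Serpinb3b 0.39 and Serpinb5 1.04), and the Serpinb2 change was -1.31 (SE 0.80, adjusted p = 0.402, limma).

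**Figure D2:**
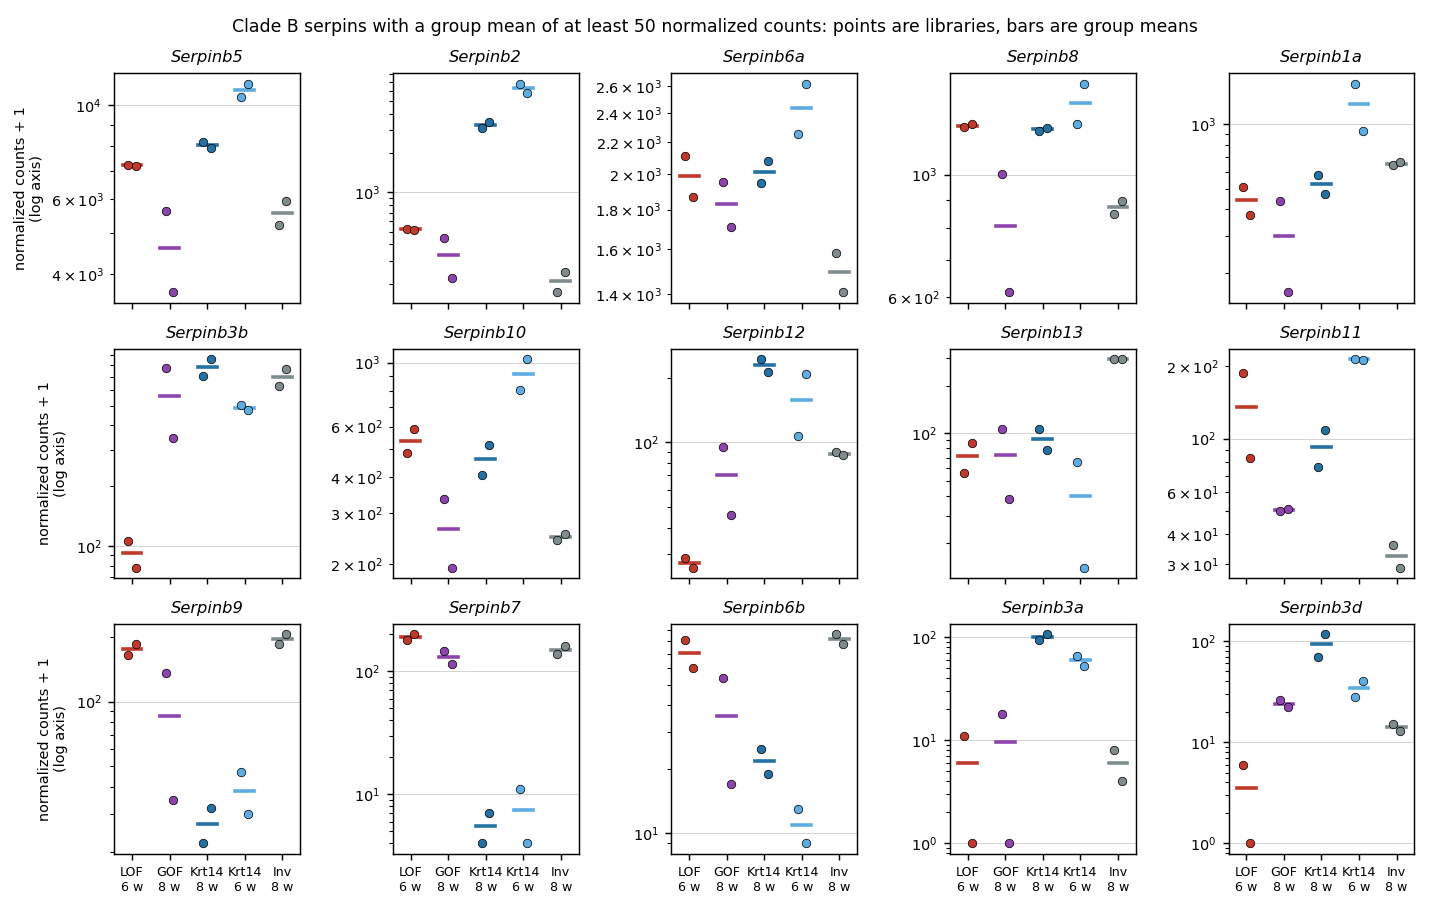
Each panel gives 1 of the 15 members with a group mean of at least 50, with normalized counts plus 1 on a log axis for each library (points) and the mean of each group (bars). Serpinb2 stands at 3089 to 6776 in the 4 Krt14 libraries and 171 to 528 in the others. Serpinb7 stands at 3 to 10 in the 4 Krt14 libraries and 115 to 199 in the others. The others include LOF, which also carries Krt14-CREER.

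**Figure D3:**
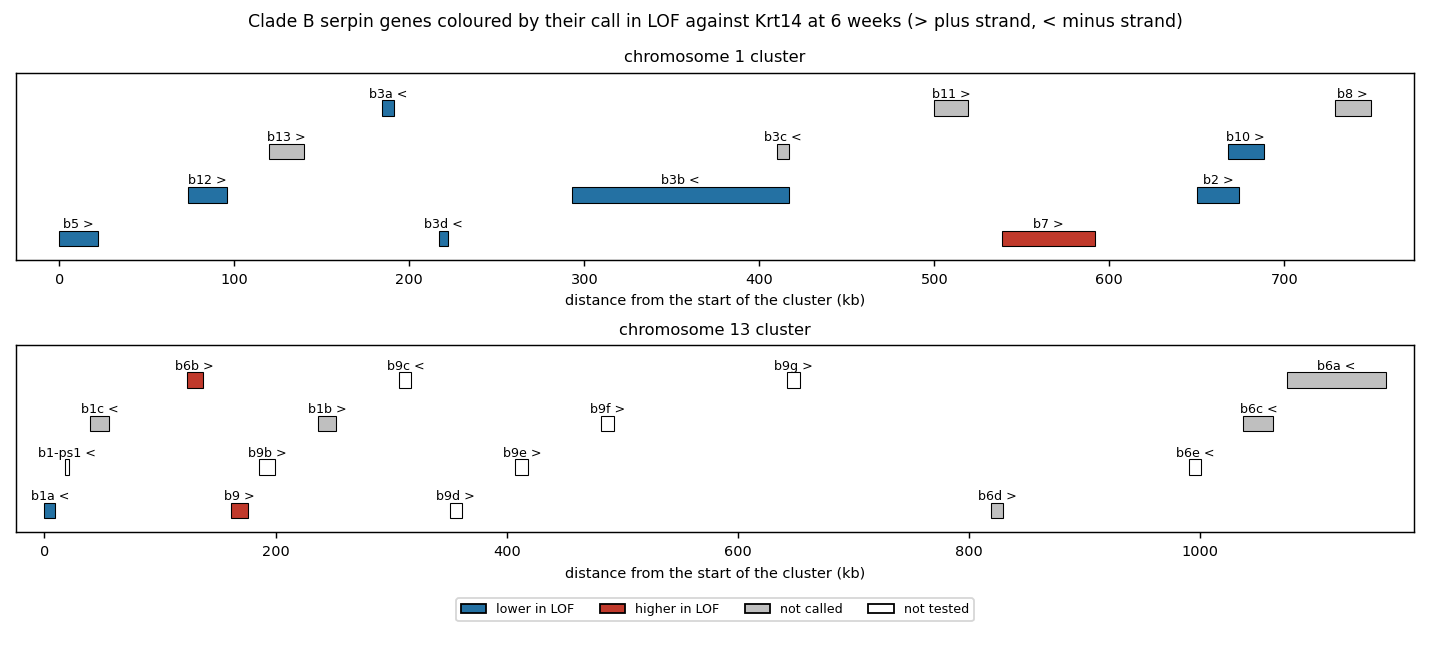
Boxes show each gene's span at its distance in kilobases from the start of the chromosome 1 cluster (top) and the chromosome 13 cluster (bottom), coloured by the call in LOF against Krt14 at 6 weeks. On chromosome 1, 7 genes were lower and 1 higher, and on chromosome 13, 1 was lower and 2 were higher, with 8 of its 16 genes not tested.

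At 8 weeks, Krt14 was compared with Inv, to see how the driver of SmoM2 goes with expression. Of the 20 tested members, 9 were higher in Krt14 and 4 lower, with 19.6% of all tested genes called (8.18% higher and 11.4% lower). The higher ones were Serpinb2, Serpinb11, Serpinb3d, Serpinb10, Serpinb6a, Serpinb12, Serpinb5, Serpinb3a and Serpinb3c, all on chromosome 1 except Serpinb6a. The lower ones were Serpinb7, Serpinb9, Serpinb6b and Serpinb6d, all on chromosome 13 except Serpinb7. The median log2 difference was 0.30 over the tested members and -0.10 over all tested genes.

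Serpinb2 stood at 3089 and 3479 in Krt14, against 171 and 247 in Inv (log2 difference 3.99, SE 0.27, adjusted p = 6.1e-06, limma). Serpinb5 stood at 8190 and 7939 in Krt14, against 5213 and 5934 in Inv (0.54, SE 0.16, adjusted p = 0.0393, limma). Together these genes carried most of the difference in the summed family, whose means were 17037 ± 345 in Krt14 and 10678.5 ± 576 in Inv (SD, n = 2 each). Serpinb10 stood at 408 and 518 in Krt14, against 242 and 253 in Inv (0.89, SE 0.25, adjusted p = 0.0261, limma). Serpinb12 stood at 243 and 212 in Krt14, against 89 and 86 in Inv (1.37, SE 0.39, adjusted p = 0.0301, limma). Serpinb11 (epipin) stood at 75 and 108 in Krt14, against 35 and 28 in Inv (1.49, SE 0.37, adjusted p = 0.0167, limma). None of these groups overlapped. Serpinb6a, on chromosome 13, differed least among the calls, with 1948 and 2079 in Krt14 and 1582 and 1405 in Inv (0.43, SE 0.12, adjusted p = 0.0281, limma).

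In the Serpinb3 group, Serpinb3d stood at 68 and 115 in Krt14, against 14 and 12 in Inv (log2 difference 2.68, SE 0.74, adjusted p = 0.026, limma). Serpinb3a stood at 93 and 105 in Krt14, against 7 and 3 in Inv. As reads this was 81 against 4, a 21.7-fold higher level (95% counting interval 8.15 to 81.5). Its log2 difference was 4.14 (95% interval 1.31 to 6.97, adjusted p = 0.0438, limma). Serpinb3c, at 12 and 23 in Krt14, against 5 and 0 in Inv, also passed (adjusted p = 0.0493, limma) on 14 against 2 reads. Serpinb3b did not pass, with 704 and 855 in Krt14 and 628 and 759 in Inv, which overlap (log2 difference 0.17, SE 0.31, adjusted p = 0.764, limma). The 95% interval of that difference was -0.51 to 0.85, so the most highly counted gene of the group had no called difference while its scarcer relatives were higher in Krt14.

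Serpinb7 stood at 3 and 6 in Krt14, against 137 and 159 in Inv. As reads this was 3 against 130, a 40.5-fold lower level (95% counting interval 13.6 to 199). Its log2 difference was -4.81 (95% interval -5.89 to -3.73, adjusted p = 6.81e-05, limma). Serpinb9 stood at 21 and 31 in Krt14, against 185 and 204 in Inv (log2 difference -2.88, SE 0.52, adjusted p = 0.00309, limma). Serpinb6b stood at 24 and 18 in Krt14, against 85 and 77 in Inv (-1.91, SE 0.53, adjusted p = 0.0273, limma). None of these groups overlapped. Dcn, 1 of the 5 fibroblast markers and the only one called, stood at 2235 and 1574 in Krt14, against 17515 and 19565 in Inv, while Col1a1 stood at 102 and 138 in Krt14, against 105 and 111 in Inv. Sebaceous gland markers (5 of 5 called lower in Krt14) summed to 27240 and 24892 in Krt14, against 135238 and 140654 in Inv. Melanocyte markers (3 of 5 called lower and 0 higher) summed to 888 and 1034 in Krt14, against 1691 and 1829 in Inv. The part of these markers in the serpin differences was not tested. Serpinb6d was listed at 0 in both Krt14 libraries and at 14 and 14 in Inv, at least 1.87-fold lower in Krt14 when its level there is put at the floor of 3 reads per library. Serpinb13 stood at 105 and 77 in Krt14 and 294 and 294 in Inv, without overlap, but did not pass (-1.70, SE 0.65, adjusted p = 0.0931, limma). Serpinb8 (1199 and 1214 in Krt14, against 847 and 895 in Inv, adjusted p = 0.112, limma) and Serpinb1a (577 and 472 in Krt14, against 642 and 664 in Inv, adjusted p = 0.62, limma) did not pass either.

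The calls for Serpinb2, Serpinb7 and Serpinb9 held when any 1 of the 4 libraries was left out, and the other 10 of 13 were lost in at least 1 such fit. The count of higher members was 2 without Krt14 8-week replicate 1, 1 without its replicate 2, 2 without Inv replicate 1 and 1 without Inv replicate 2, and the count of lower members was 2 in each case. Those fits called 10.2%, 9.46%, 9.56% and 8.62% of all tested genes.

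**Figure D4:**
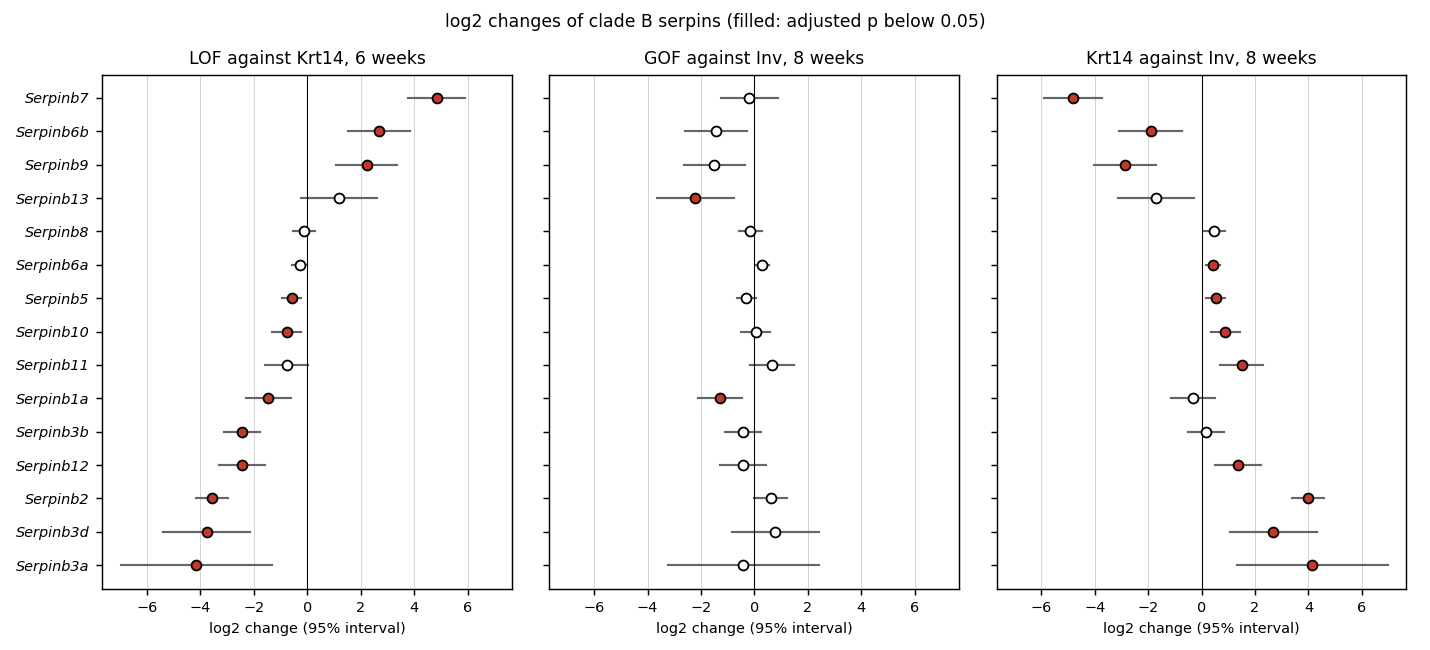
Points are the log2 changes of the 15 more abundant members with their 95% intervals in 3 comparisons, ordered by the change in LOF and filled where the adjusted p was under 0.05. In LOF against Krt14 at 6 weeks 11 points are filled, in GOF against Inv 2, and in Krt14 against Inv 11 of the 15, with Serpinb2 at -3.58, 0.60 and 3.99.

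The comparison of LOF with Krt14 at 6 weeks and that of Krt14 with Inv at 8 weeks share no library. Their log2 changes can therefore be set side by side. Their calls are not independent, because the fit of all 10 libraries gave each gene the same SE in both. Called in both were 9 members, 81.8% of the 11 called in LOF and 69.2% of the 13 called between the drivers. Over all tested genes the shares were 42.6% of those called in LOF and 67.3% of those called between the drivers. Serpinb2, Serpinb3a, Serpinb3d, Serpinb5, Serpinb10 and Serpinb12 were lower in LOF and higher in Krt14 than in Inv, and Serpinb6b, Serpinb7 and Serpinb9 were higher in LOF and lower in Krt14 than in Inv. All 9 thus had opposite signs. The same held for most other genes: 2901 were called in both comparisons, and 96.9% of them had opposite signs. Serpinb3b was lower in LOF and did not pass between the drivers (0.17), and the difference between those changes was not tested.

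**Figure D5:**
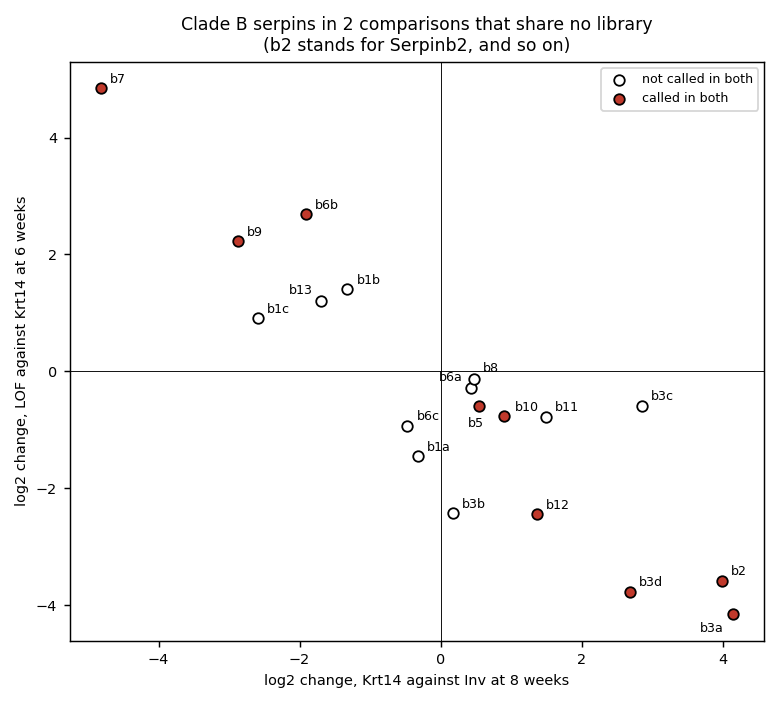
Each point is a tested member placed by its log2 difference between Krt14 and Inv at 8 weeks (horizontal) and between LOF and Krt14 at 6 weeks (vertical), leaving out Serpinb6d, which was at 0 in both groups of the second comparison. The 9 filled points, called in both, lie at the upper left (3 members) and the lower right (6 members).

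Survivin gain in Inv cells was compared with Inv at 8 weeks, to see what more Survivin goes with in cells reached through Involucrin. Of the 20 tested members, 2 were lower (Serpinb13 and Serpinb1a) and 0 were higher by limma, with 15.3% of all tested genes called (6.87% higher and 8.4% lower). At an unadjusted p under 0.05, 2 members were higher and 6 lower (29.7% of all tested genes passed), and limma-voom on recovered reads called 4 lower and 0 higher (17% of all). The median log2 change was -0.36 over the tested members and -0.01 over all tested genes.

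Serpinb13 stood at 106 and 37 in GOF, against 294 and 294 in Inv (log2 change -2.21, SE 0.65, adjusted p = 0.0419, limma). Serpinb1a stood at 436 and 162 in GOF, against 642 and 664 in Inv (-1.29, SE 0.38, adjusted p = 0.0427, limma). Neither pair of groups overlapped, but the GOF replicates of each gene differed by more than 2-fold. Serpinb2 stood at 445 and 219 in GOF, against 171 and 247 in Inv, and the groups overlapped (0.60, SE 0.27, adjusted p = 0.169, limma). Serpinb5 stood at 5620 and 3624 in GOF, against 5213 and 5934 in Inv, also with overlap (-0.30, SE 0.16, adjusted p = 0.246, limma). Serpinb7 stood at 145 and 115 in GOF, against 137 and 159 in Inv (-0.19, SE 0.49, adjusted p = 0.844, limma). Serpinb9 stood at 135 and 34 in GOF, against 185 and 204 in Inv, and Serpinb6b at 53 and 16 in GOF, against 85 and 77 in Inv, without overlap but short of the threshold (adjusted p = 0.0787 and 0.0948, limma).

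The Serpinb3 genes did not pass either: Serpinb3b stood at 770 and 344 in GOF, against 628 and 759 in Inv, and Serpinb3d at 25 and 21 in GOF, against 14 and 12 in Inv. Serpinb3a was at 17 and 0 in GOF, against 7 and 3 in Inv. The remaining members above a mean of 50 were Serpinb6a (1951 and 1708 in GOF, against 1582 and 1405 in Inv), Serpinb8 (1001 and 611 in GOF, against 847 and 895 in Inv), Serpinb10 (335 and 193 in GOF, against 242 and 253 in Inv), Serpinb11 (49 and 50 in GOF, against 35 and 28 in Inv) and Serpinb12 (94 and 45 in GOF, against 89 and 86 in Inv). Of these, Serpinb6a and Serpinb11 were higher in both GOF libraries than in either Inv library, and none passed. The count depends on the GOF pair: without GOF replicate 1, 8 members were lower (28.2% of all genes called), and without GOF replicate 2, 0 were lower and 1 higher (9.9% of all). Both calls were also lost without Inv replicate 1 or Inv replicate 2, fits that called fewer genes of any kind than the main fit. With the log2 Xist covariate 0 members were lower, but that fit called only 0.182% of all tested genes, against 15.3% in the main fit.

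GOF was also set against Krt14 at 8 weeks, a comparison that changes driver and Survivin together. Of the 20 tested members, 6 were lower in GOF and 1 higher, with 27.7% of all tested genes called (15.2% higher and 12.5% lower). The median log2 difference was -0.71 over the tested members and 0.09 over all tested genes. Serpinb2 stood at 445 and 219 in GOF, against 3089 and 3479 in Krt14 (log2 difference -3.39, SE 0.27, adjusted p = 1.75e-05, limma). Serpinb5 stood at 5620 and 3624 in GOF, against 8190 and 7939 in Krt14 (-0.84, SE 0.16, adjusted p = 0.00335, limma). Serpinb12 (94 and 45 in GOF, against 243 and 212 in Krt14), Serpinb10 (335 and 193 in GOF, against 408 and 518 in Krt14), Serpinb8 (1001 and 611 in GOF, against 1199 and 1214 in Krt14) and Serpinb3a (17 and 0 in GOF, against 93 and 105 in Krt14) were also lower. Serpinb7 stood at 145 and 115 in GOF, against 3 and 6 in Krt14. As reads this was 104 against 3, a 35.7-fold higher level (95% counting interval 11.9 to 176). Its log2 difference was 4.62 (95% interval 3.54 to 5.70, adjusted p = 8.51e-05, limma). Among the members not called were Serpinb9 (log2 difference 1.38), Serpinb3d (-1.90), Serpinb1a (-0.97), Serpinb11 (-0.85), Serpinb3b (-0.59), Serpinb13 (-0.51), Serpinb6a (-0.14) and Serpinb6b (0.48). In Serpinb2 and Serpinb7 the GOF libraries thus stood near the Inv libraries and far from the Krt14 libraries. Serpinb13 went the other way, with 106 and 37 in GOF, 105 and 77 in Krt14, and 294 and 294 in Inv. This comparison shares libraries with the others, so it is no independent evidence of them. The calls for Serpinb2, Serpinb5 and Serpinb7 held when any 1 of the 4 libraries was left out. The other 4 of the 7 were each lost in at least 1 such fit. With the log2 Xist covariate the lower count was 0, and that fit called 0.918% of all tested genes.

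Krt14 at 8 weeks was compared with Krt14 at 6 weeks, for the course of time under the same driver. Of the 20 tested members, 1 was lower at 8 weeks and 0 were higher by limma, with 4.88% of all tested genes called (4.02% higher and 0.855% lower). At an unadjusted p under 0.05, 6 were lower and 1 higher (22% of all tested genes passed), and limma-voom called 2 lower and 0 higher (3.19% of all). The median log2 change was -0.16 over the tested members and 0.14 over all tested genes. Serpinb10 stood at 408 and 518 at 8 weeks, against 801 and 1028 at 6 weeks (log2 change -0.98, SE 0.25, adjusted p = 0.0474, limma), a call lost without any 1 of the 4 libraries. Serpinb2 stood at 3089 and 3479 at 8 weeks, against 6776 and 5764 at 6 weeks, without overlap but short of the threshold (-0.93, SE 0.27, adjusted p = 0.0785, limma). Serpinb1a (577 and 472 at 8 weeks, against 1551 and 928 at 6 weeks), Serpinb5 (8190 and 7939 at 8 weeks, against 10478 and 11234 at 6 weeks) and Serpinb11 (75 and 108 at 8 weeks, against 213 and 212 at 6 weeks) likewise stood lower at 8 weeks in both libraries and did not pass. Serpinb3b (704 and 855 at 8 weeks, against 502 and 478 at 6 weeks), Serpinb3a (93 and 105 at 8 weeks, against 65 and 52 at 6 weeks) and Serpinb3d (68 and 115 at 8 weeks, against 27 and 39 at 6 weeks) stood higher at 8 weeks in both libraries and did not pass. Serpinb12 (log2 change 0.61), Serpinb13 (1.58), Serpinb6b (1.01), Serpinb6a (-0.27), Serpinb8 (-0.15), Serpinb7 (-0.33) and Serpinb9 (-0.50) did not pass either. The summed family had a mean of 17037 ± 345 at 8 weeks and 24150.5 ± 38.9 at 6 weeks (SD, n = 2 each). Rescaling by the median of ratios moved the median log2 change of all genes from 0.14 to 0.00.

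Serpinb3c, Serpinb1b, Serpinb1c, Serpinb6c and Serpinb6d were tested with a mean under 50 in every group, and their values lay between 0 and 43. Serpinb6c, at 5 to 35 in all 10 libraries, passed in none of the 5 comparisons. Serpinb6d was at 14 and 14 in Inv, 0 and 3 in GOF and 0 in the other 6 libraries. Serpinb9b, Serpinb6e and Serpinb1-ps1 were detected at 5 or fewer units, under the value of 3 reads, and not tested. Serpinb9c, Serpinb9d, Serpinb9e, Serpinb9f and Serpinb9g were listed at 0 in all 10 libraries, and Serpinb9f and Serpinb9g share 78.7% and 54.8% of their 50-base stretches with other genes.

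Proteases that clade B serpins are known to inhibit were read as a list of 16 genes, of which 11 were tested. In LOF 2 were higher and 3 lower (median log2 change 0.07). The lysosomal protease Ctsb, cathepsin B, stood at a mean of 3734 in LOF and 8382 in Krt14 at 6 weeks (log2 change -1.17, SE 0.09), Casp1 fell by 2.11 (SE 0.24), and Plat, the tissue plasminogen activator, rose by 1.30 (SE 0.25). Plau, named as the urokinase that Serpinb2 inhibits, did not pass, with 1106 and 880 in LOF and 1020 and 742 in Krt14 at 6 weeks (0.18, SE 0.33, adjusted p = 0.718, limma). Between the drivers 4 were higher in Krt14 and 1 lower (median 0.78), with Ctsb at a mean of 7047 in Krt14 and 2344.5 in Inv (1.59, SE 0.09). In GOF against Inv 3 were higher, with the lysosomal Ctsl at 1364 and 3185 in GOF, against 851 and 890 in Inv (1.26, SE 0.29), and Ctsh at a mean of 1057 in GOF and 513 in Inv (1.04, SE 0.14). In GOF against Krt14 2 were higher and 3 lower, and between the weeks 1 (Casp1, 1.07) was higher.

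Other protease inhibitors of the epidermis were read as a list of which 18 were tested. Of these, 8 were lower and 1 higher in LOF, and 10 were higher and 3 lower in Krt14 than in Inv. Spink5, the inhibitor of skin kallikreins, stood at a mean of 400.5 in LOF and 3064 in Krt14 at 6 weeks (-2.86, SE 0.26), and at 2237.5 in Krt14 and 251 in Inv at 8 weeks (3.15, SE 0.26). Cstb, the cathepsin inhibitor stefin B, fell by 1.47 (SE 0.15) in LOF, and Timp3, an inhibitor of metalloproteinases, rose by 0.84 (SE 0.21). In GOF against Inv 3 were higher and 2 lower, with Cst6, cystatin M of the skin, at a mean of 882.5 in GOF and 310 in Inv (1.41, SE 0.29). In GOF against Krt14 1 was higher and 8 were lower, and 18 of 18 did not pass between the weeks. Among 24 tested serpins of other clades 5 were higher and 2 lower in LOF, and 2 were higher and 7 lower in Krt14 than in Inv. Serpina3b stood at 199 and 508 in LOF, over 2-fold apart, against 12 and 19 in Krt14 at 6 weeks (4.31, SE 0.37). The highest Serpina3b mean was in Inv, with 543.5 in GOF and 4239 in Inv (-2.96, SE 0.37). In GOF 5 of these were higher and 4 lower than in Inv, and 11 higher and 2 lower than in Krt14, and between the weeks 2 were higher and 1 was lower.

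Keratinocyte state genes give the setting of these changes. Of 16 tested genes of the wound and stress state, 15 were lower in LOF (median -5.01), 15 were higher in Krt14 than in Inv (4.86), 3 were higher in GOF than in Inv (0.57), 15 were lower in GOF than in Krt14 (-3.96) and 1 was lower at 8 than at 6 weeks (-0.54). Of 18 tested genes of epidermal differentiation, 10 were lower and 4 higher in LOF (median -1.36), and 11 were higher and 1 lower in Krt14 than in Inv (1.69). In that list 1 was higher and 1 lower in GOF than in Inv, 9 were lower in GOF than in Krt14, and 3 were higher at 8 weeks. Of 12 tested genes of basal keratinocytes, 3 were higher and 2 lower in LOF, 7 were higher in Krt14 than in Inv, and 6 were higher in GOF than in Inv. For basal genes the other counts were 2 higher and 2 lower in GOF against Krt14 and 3 lower at 8 weeks. The hemidesmosome linker Dst, of the basal list, stood at a mean of 83806 in LOF and 45806.5 in Krt14 at 6 weeks (0.87, SE 0.09). The wound keratin Krt6a stood at a mean of 2812 in LOF and 46316.5 in Krt14 at 6 weeks (-4.12, SE 0.27), and the suprabasal keratin Krt1 at 21861.5 in Krt14 and 6773.5 in Inv at 8 weeks (1.69, SE 0.32). Krt10, its partner, stood at 16290.5 in Krt14 at 8 weeks and 4356.5 at 6 weeks (1.98, SE 0.27). Sebaceous gland markers (5 of 5 detected) summed to 21684 and 35943 in LOF, 37873 and 54199 in GOF, 27240 and 24892 in Krt14 at 8 weeks, 9085 and 8232 in Krt14 at 6 weeks, and 135238 and 140654 in Inv. The part of cell makeup in the serpin differences was not tested.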

How the data were processed

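RNA of 10 libraries, 2 for each of 5 groups named by the labels, was read from 1 deposited table of 49671 genes. Its values were normalized counts that the authors had scaled to a common total and rounded up to whole numbers, so they were treated as a score and not as raw counts. The submitters' processing notes name STAR, HTSeq and GRCm38 (mm10). Whether counting used strand, and the release of the annotation, is not given in the sources used here, and neither are versions. The labels do not say whether libraries are separate animals, so p-values may measure only technical spread. Genes with at least 10 units in at least 2 libraries (21995) were tested as log2(value + 1) with limma 3.58.1 (R 4.3.3) in 1 fit of all 5 groups with a trended prior, and p-values were adjusted over all tested genes by the Benjamini-Hochberg method. Log2 changes are means of logs on this scale, so for low genes they can lie below or above the ratio of the means. An exact permutation test of 2 against 2 libraries cannot go below p = 0.333. Groups without overlap reach only that value, and the share of all tested genes with such groups was not counted. Reads were recovered from the steps in the values (99.3% to 99.9% of values came out whole) for the counting intervals and for limma-voom. The counting intervals pool the reads of both libraries of a group and leave out the spread between libraries. Genes are named by their level: members with a group mean of at least 50 in full, the rest by range, and from each gene list called members of high mean. Members, lists and tests were chosen with earlier results of these data known. Promoters are from RefSeq (GRCm38.p6), positions from GENCODE M21.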

Additional observations from a re-analysis of the deposited data

How the results depend on the processing

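Counts of called members were recomputed under other settings, and the share of all genes called moved too. With no filter on low values it was 17.6% in LOF, 7.66% in GOF against Inv and 11% between the drivers. It was then 1.64% between the weeks and 16.7% in GOF against Krt14. In fits to the 2 groups, the shares were 24.5%, 1.17%, 26.1%, 0.0364% and 12.1% in the same order. With log2 Xist they were 4.28%, 0.182%, 23.4%, 8.09% and 0.918%. Member counts are read beside these shares. For LOF the lower count of 8 became 4 with no filter on low values, 5 in a fit to the 2 groups compared, and 4 to 7 with 1 library left out. For GOF against Inv the lower count of 2 became 1 with no filter, 4 with limma-voom, 0 in a fit to the 2 groups and 0 to 8 with 1 library left out, and the higher count was 0 to 1. For Krt14 against Inv the higher count of 9 became 2 with no filter and 1 to 2 with 1 library left out, and the lower count of 4 became 2. For 8 against 6 weeks the lower count of 1 became 0 with a pseudocount of 0.5, with no filter, in a fit to the 2 groups and with any library left out, and 2 with the median of ratios and with limma-voom, and the higher count was 0 to 1. For GOF against Krt14 the lower count of 6 became 3 with no filter and in a fit to the 2 groups and 2 to 9 with 1 library left out, and the higher count was 1 to 2. With log2 Xist as a covariate, chosen after seeing the data, lower counts were 0 in LOF, 0 in GOF against Inv, 4 between the weeks and 0 in GOF against Krt14, and higher counts were 5 between the drivers and 0 in GOF against Krt14. That covariate reversed the LOF changes of Serpinb10 (0.74), Serpinb12 (0.82), Serpinb1a (2.05), Serpinb3a (7.55), Serpinb3b (0.39), Serpinb3c (0.81), Serpinb5 (1.04), Serpinb6a (0.27) and Serpinb8 (1.65). It reversed the GOF changes against Inv of Serpinb12 (2.05), Serpinb1a (1.37), Serpinb3a (8.46), Serpinb3b (1.71), Serpinb5 (0.93), Serpinb6b (1.77), Serpinb8 (1.19) and Serpinb9 (1.19), and the driver difference of Serpinb3b (-0.17). Against Krt14 it reversed the GOF differences of Serpinb10 (0.47), Serpinb12 (1.08), Serpinb13 (1.33), Serpinb1a (2.11), Serpinb3a (5.72), Serpinb3b (1.88), Serpinb3c (0.39), Serpinb5 (0.60), Serpinb6a (0.35), Serpinb6d (-3.06) and Serpinb8 (0.94). A pseudocount of 5 turned Serpinb3a in GOF against Inv to 0.10. With 1 library left out, GOF changes against Inv ranged over 0 for Serpinb10 (-0.36 to 0.44), Serpinb12 (-0.94 to 0.10), Serpinb3a (-2.50 to 1.67), Serpinb3b (-1.0 to 0.16), Serpinb5 (-0.62 to 0.015) and Serpinb8 (-0.51 to 0.20), the week change of Serpinb7 was -1.06 to 0.40, and the GOF differences against Krt14 were -1.26 to 0.23 for Serpinb13 and -0.36 to 1.31 for Serpinb6b. The cause of these shifts was not tested. Replicate numbers did not pair the samples (correlations of deviations between -0.05 and 0.04), and with the replicate number as a block the counts of higher and lower members were 3 and 8 in LOF, 0 and 2 in GOF against Inv, 8 and 4 between the drivers, 0 and 1 between the weeks, and 1 and 7 in GOF against Krt14. Members near 3 reads could not be compared finely at this depth.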
